A study of Mus musculus with 18 samples.

Results

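Mature interstitial macrophages (matIMs) of WT mice were compared with transitional interstitial macrophages (tnsIMs), both sorted from lungs exposed to LPS. The libraries were chosen by the population and genotype that the labels give, which made 3 WT matIM and 3 WT tnsIM libraries, 6 of the 18 in the series. The mice were C57BL/6, 3 to 5 months old, and had inhaled nebulized LPS of Pseudomonas aeruginosa (12.5 mg in 5 ml PBS over 15 min). Lungs were taken 24 h later, and every group described here had received LPS. Both populations were gated as CD45+, CD11b+ and MHC-II+ cells, with Ly6C present on tnsIMs and absent on matIMs. The study's results section also gives matIMs as Ly6C- and MHC-II+, while its methods section prints them as Ly6C+ and MHC-II-. In the gating that the study's methods describe, CD11b+ cells came from cells without CD11c, granulocytes were removed, and dendritic cells and alveolar macrophages were sought among CD11c+ cells. Ly6C+ monocyte-derived macrophages (moMs), the MHC-II- population of the sort, had 3 further WT libraries, and their levels are given where they help to place the tnsIMs. The WT line was B6.Cx3cr1tm1.1(cre)Jung/J, so the WT mice carried Cre recombinase at Cx3cr1 without floxed Ezr. Ezr-KOm mice carried the same Cre with Ez fl/fl alleles, which limits the deletion to cells that express or once expressed Cx3cr1. Their 3 tnsIM and 3 matIM libraries gave the same comparison in the other genotype.

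Classical monocytes leave the blood during lung inflammation carrying Ly6C and the receptor CCR2, and in tissue they can lose Ly6C and gain MHC class II as they become macrophages or cells that present antigen. Interstitial macrophages lie in the connective tissue around airways and vessels, where they take up debris, present antigen to T cells and release both inflammatory and regulatory cytokines. Dendritic cells share MHC class II, CD11b and many other surface proteins with them. When dendritic cells mature they lower their uptake receptors, raise CCR7, fascin and costimulatory ligands, and move along lymphatic vessels towards lymph nodes.

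The genes of the sort gate were examined first. Ly6c2, which encodes the Ly6C antigen of classical monocytes, was at 288, 109.9 and 258 CPM in tnsIMs and 69.1, 33.1 and 51.3 CPM in matIMs (libraries are given in the order of replicates 1 to 3 throughout). Every matIM library lay below every tnsIM library, and Ly6c2 was 4.28-fold lower in matIMs (log2 difference -2.1 ± 0.39 SE, adjusted p = 6.59e-04). The near-identical Ly6c1 also fell (log2 difference -3.14, adjusted p = 5.95e-07), and reads may have been split between these copies. The endothelial genes, described further on, fell by a similar amount (median log2 difference -3.35), and their part in the fall of Ly6c1 was not tested. H2-Eb1, a chain of the MHC class II molecule I-E, was at 3587, 3186 and 2575 CPM in tnsIMs and 6954, 5692 and 5060.3 CPM in matIMs, with no overlap between the groups (log2 difference 0.92 ± 0.21 SE, adjusted p = 0.0038). H2-Ab1 of I-A was at 11427, 18399.8 and 7929.8 CPM in tnsIMs and 17064, 16496 and 12522 CPM in matIMs, where the ranges overlapped, and was not called (adjusted p = 0.512). Its partner H2-Aa was above the tnsIM libraries in all matIM libraries but was not called either (log2 difference 0.55, adjusted p = 0.0986). Itgam (CD11b) was not called (log2 difference -0.45, adjusted p = 0.0569). It was called with the replicate number as a block (adjusted p = 0.012) and without tnsIM replicate 3 (adjusted p = 0.035). Ptprc, the pan-leukocyte antigen CD45, was at 796, 809 and 1067 CPM in tnsIMs and 934, 1014 and 1163 CPM in matIMs and did not pass the test (adjusted p = 0.567). The 2 populations thus differed in Ly6C transcripts in the direction of the gate. In bulk libraries of this kind, fewer cells of one type and less RNA per cell cannot be told apart.

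The 6 libraries held between 16512783 and 25129778 counts, and CPM values (counts scaled to library size with TMM factors) were computed from them. Of 21254 genes in the table, 15811 passed the expression filter and were tested with the quasi-likelihood F-test of edgeR (two-sided, Benjamini-Hochberg adjusted over all genes tested). At an adjusted p under 0.05, 1315 genes were higher in WT matIMs (8.32% of the genes tested) and 1611 were lower (10.2%), which together made 18.5%. All 3 matIM libraries lay above all 3 tnsIM libraries for 16.2% of the genes tested and below them for 15.4%. Changes over 4-fold were found for 461 of the higher and 869 of the lower genes. The double threshold of the study (p under 0.05 without adjustment and a log2 fold change beyond 0.75 in either direction) took in 19.6% of the genes tested, of which 1362 were higher (8.61%) and 1738 lower (11%). The median log2 difference over all genes tested was 0.037. These 2 shares, 8.32% and 10.2%, are the background for each gene list given from here on.

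**Figure D1:**
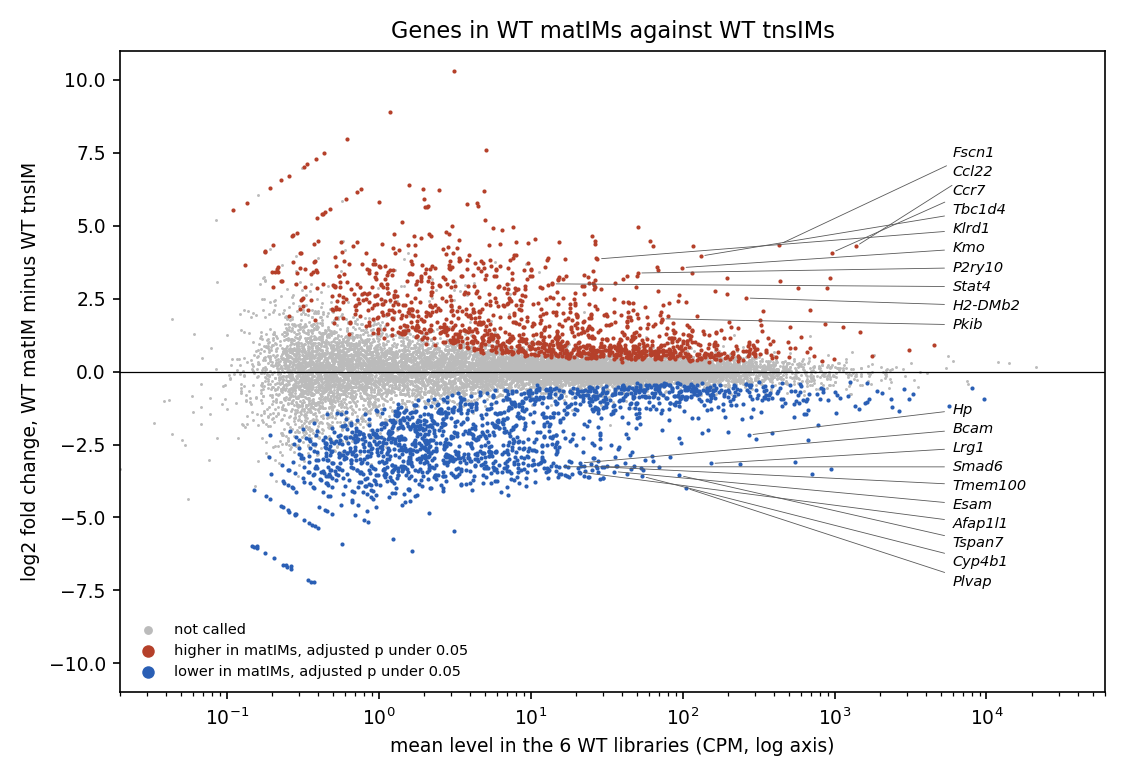
Log2 fold change of each gene tested (y axis, WT matIM minus WT tnsIM) against its mean level in the 6 WT libraries (x axis, CPM, log axis), with called genes in colour and the 10 genes of smallest p in each direction labelled. The 1315 higher and 1611 lower genes occur at all levels of expression, and the labelled higher genes include Ccr7, Fscn1 and Ccl22.

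The 10 genes with the smallest p among those higher in matIMs were Tbc1d4, Ccl22, P2ry10, Kmo, H2-DMb2, Ccr7, Klrd1, Stat4, Fscn1 and Pkib. Tbc1d4, a Rab GTPase-activating protein of glucose transporter traffic (chr14:101679796-101846627, - strand of GRCm39), was at 17, 14.1 and 16.5 CPM in tnsIMs and 209, 298 and 236 CPM in matIMs. It was 15.6-fold higher in matIMs, with no overlap (log2 difference 3.96 ± 0.19 SE, adjusted p = 6.94e-10). Kmo, the kynurenine monooxygenase of tryptophan breakdown (chr1:175447947-175489682, + strand), was at 11.9, 19.4 and 15.2 CPM in tnsIMs and 174, 197 and 177 CPM in matIMs. Its level in tnsIMs was close to that in moMs (12, 14 and 13.4 CPM), and it was 11.8-fold higher in matIMs than in tnsIMs (log2 difference 3.56 ± 0.20 SE, adjusted p = 1.73e-09). P2ry10, a receptor for lysophosphatidylserine, was at 8.51, 8.12 and 9.95 CPM in tnsIMs and 96.3, 103 and 78.3 CPM in matIMs (log2 difference 3.38 ± 0.18 SE, adjusted p = 1.46e-09). Klrd1, the CD94 chain of NKG2 lectin receptors, was at 2.92, 2.66 and 4.94 CPM in tnsIMs and 54.8, 52.3 and 47.6 CPM in matIMs (log2 difference 3.86 ± 0.26 SE, adjusted p = 1.70e-08). Stat4, a transcription factor of IL-12 signalling, was at 3.0, 2.54 and 3.57 CPM in tnsIMs and 21.7, 30.6 and 21.5 CPM in matIMs (log2 difference 3.01 ± 0.21 SE, adjusted p = 3.88e-08). Pkib, an inhibitor of protein kinase A, was 3.51-fold higher (log2 difference 1.81 ± 0.13 SE, adjusted p = 6.14e-08). All 10 genes were higher in matIMs of Ezr-KOm mice too, by log2 differences between 2.21 for Pkib and 4.24 for Fscn1.

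Genes of mature migratory dendritic cells included 4 of these 10 (Ccl22, Ccr7, Stat4 and Fscn1). Of 44 tested, 33 were higher in matIMs and 2 lower, with a median log2 difference of 1.28 against 0.037 over all genes. Ccr7, the receptor that guides cells to lymph nodes (chr11:99035022-99045903, - strand), was at 99.9, 128 and 94.5 CPM in tnsIMs and 1945, 2019 and 1481 CPM in matIMs. Every matIM library lay far above the highest tnsIM library, and the difference was 16.9-fold (log2 difference 4.08 ± 0.27 SE, adjusted p = 1.70e-08). Fscn1, the actin bundler fascin (chr5:142946098-142958940, + strand), was at 33, 40.2 and 47.5 CPM in tnsIMs and 614, 1019.5 and 839 CPM in matIMs (log2 difference 4.36 ± 0.32 SE, adjusted p = 5.81e-08). Ccl22, a ligand of CCR4 (chr8:95472218-95478327, + strand), was at 124, 147 and 132 CPM in tnsIMs and 2605, 3092 and 2202 CPM in matIMs (log2 difference 4.29 ± 0.23 SE, adjusted p = 1.46e-09). In WT moMs these genes were lower again, at 16.3, 14.3 and 9.76 CPM for Ccr7 and 1.02, 1.37 and 1.81 CPM for Fscn1. Cacnb3, a calcium channel beta subunit, was at 6.67, 15.6 and 11.3 CPM in tnsIMs and 139.5, 282 and 244 CPM in matIMs (log2 difference 4.32 ± 0.39 SE, adjusted p = 4.50e-07). Socs2, an inhibitor of cytokine signalling, rose less (log2 difference 1.3, adjusted p = 5.06e-06), as did Relb, a subunit of the alternative NF-kappaB pathway (log2 difference 1.15, adjusted p = 6.75e-06). The 2 lower members went the other way from their list. Lamp3, a lysosomal membrane protein that alveolar type 2 cells also express, was at 67.2, 72.7 and 121 CPM in tnsIMs and 8.96, 8.84 and 9.91 CPM in matIMs (log2 difference -3.23 ± 0.35 SE, adjusted p = 2.30e-06), and the epithelial genes moved in the same direction, as described further on. Bcl2l1, an inhibitor of apoptosis, was lower by a log2 difference of -0.62, adjusted p = 0.0408. That call was lost without matIM replicate 1, matIM replicate 3 or tnsIM replicate 2 (adjusted p between 0.0849 and 0.189), which left 1 lower member. The summed level of the list was 6320.2 to 7388 CPM in moMs, 7675 to 9007 CPM in tnsIMs and 17401 to 23327 CPM in matIMs.

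Genes shared by conventional dendritic cells moved together in the same direction, with 15 of 17 higher in matIMs, 0 lower and a median log2 difference of 2.43. Tbc1d4, Kmo and H2-DMb2, named above among the genes with the smallest p, are on this list. Like the other lists, it was written with earlier results of these data known. Flt3, the growth factor receptor that dendritic cells need, was at 7.22, 14.9 and 12.1 CPM in tnsIMs and 92, 141 and 147 CPM in matIMs (log2 difference 3.48 ± 0.35 SE, adjusted p = 1.01e-06). It was at 28.4, 37.7 and 37.8 CPM in moMs, so that tnsIMs held the lowest level of the 3 populations. Zbtb46, a transcription factor of the conventional dendritic cell lineage, was at 10.4, 23.3 and 19.9 CPM in tnsIMs and 100.2, 125 and 134 CPM in matIMs (log2 difference 2.75 ± 0.27 SE, adjusted p = 7.68e-07) and at 2.39, 4.93 and 3.15 CPM in moMs. Dpp4, the peptidase CD26, was at 17.2, 31.5 and 38.5 CPM in tnsIMs and 117, 171 and 181 CPM in matIMs (log2 difference 2.43 ± 0.29 SE, adjusted p = 5.95e-06). The subset lists were mixed. Among type 1 dendritic cell genes 4 of 15 were higher and 2 lower, and the receptors that define the subset were not called. Xcr1 was at 4.09, 3.36 and 2.23 CPM in tnsIMs and 3.95, 3.08 and 4.25 CPM in matIMs (adjusted p = 0.752) and Clec9a at 1.33, 1.9 and 3.29 CPM in tnsIMs and 3.41, 4.44 and 4.29 CPM in matIMs (adjusted p = 0.228). Itgae (CD103) was at or under 1.27 CPM in tnsIMs and at 6.07, 10.6 and 9.13 CPM in matIMs (log2 difference 3.45 ± 0.52 SE, adjusted p = 8.30e-05). Of 14 type 2 genes 5 were higher (8 with the replicate number as a block), among them Cd209a, a C-type lectin of monocyte-derived and type 2 dendritic cells. It was at 28.2, 196 and 53.1 CPM in tnsIMs and 476, 1193 and 690.4 CPM in matIMs (log2 difference 3.09 ± 0.62 SE, adjusted p = 0.00137), and leaving out tnsIM replicate 2, the highest tnsIM library, raised the log2 difference to 4.25. Mgl2, the lectin CD301b, was at 52.1, 76.8 and 33.6 CPM in tnsIMs and 346, 407 and 265 CPM in matIMs (log2 difference 2.65 ± 0.28 SE, adjusted p = 1.84e-06). Irf4, a transcription factor of type 2 dendritic cells and plasma cells, was at 30.7, 19.8 and 34.9 CPM in tnsIMs and 127, 106 and 116 CPM in matIMs (log2 difference 2.03 ± 0.31 SE, adjusted p = 9.52e-05). The summed level of the conventional list was 457 to 555 CPM in moMs, 868 to 982 CPM in tnsIMs and 2367 to 2601 CPM in matIMs. The gating described in the study's methods took both populations from cells without CD11c. Itgax, which encodes CD11c, was at 671, 457 and 537 CPM in tnsIMs and 714, 613 and 644 CPM in matIMs and was not called (adjusted p = 0.397). The part of dendritic cells in the matIM libraries was not tested.

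**Figure D2:**
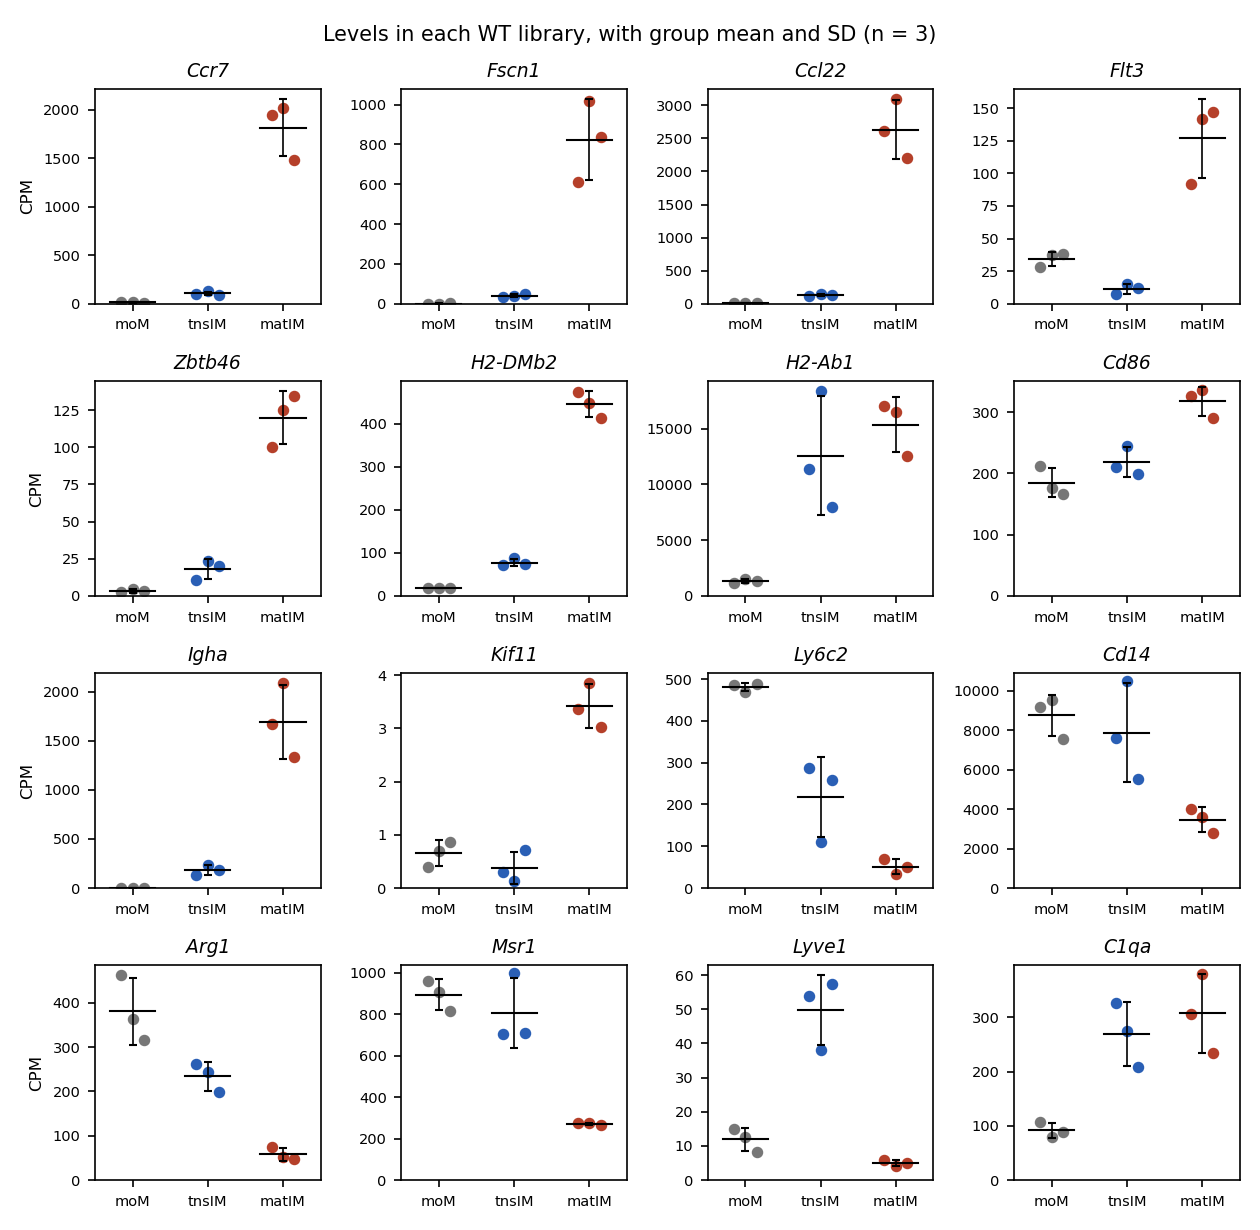
Level of 16 genes (y axis, CPM from 0, own scale in each panel) in the 3 WT libraries of each population on the x axis, as points with the mean and SD (n = 3). The matIM points of Ccr7, Fscn1, Ccl22, Flt3, Zbtb46, H2-DMb2, Igha and Kif11 lie above every tnsIM point, those of Ly6c2, Cd14, Arg1, Msr1 and Lyve1 lie below, and those of H2-Ab1 and C1qa overlap.

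Macrophage markers were set beside these genes to check the label. Of 32 markers of resident interstitial macrophages, 7 were higher and 13 lower in matIMs than in tnsIMs, and the count of higher markers fell to 2 without matIM replicate 2 and to 4 without tnsIM replicate 2 or 3. Csf1r, the receptor for the macrophage growth factor CSF-1, was at 2388, 2288 and 2387 CPM in tnsIMs and 1362, 1430.3 and 1627 CPM in matIMs and was 1.6-fold lower (log2 difference -0.68 ± 0.12 SE, adjusted p = 6.04e-04). Fcgr1 (CD64), a high-affinity receptor for IgG, was at 238, 195 and 212 CPM in tnsIMs and 124, 108 and 109 CPM in matIMs (log2 difference -0.92 ± 0.18 SE, adjusted p = 0.00135). Maf, a transcription factor of macrophages, fell (log2 difference -1.33, adjusted p = 3.32e-05). Lyve1, a hyaluronan receptor of perivascular macrophages that lymphatic endothelium also expresses, was at 53.8, 38 and 57.4 CPM in tnsIMs and 6.03, 4.14 and 4.88 CPM in matIMs (log2 difference -3.31 ± 0.31 SE, adjusted p = 5.95e-07), and the endothelial genes moved with it. The complement genes C1qa, C1qb and C1qc were not called, with log2 differences of 0.19, -0.20 and 0.034. C1qa was at 327, 274 and 209 CPM in tnsIMs and 307, 381 and 235 CPM in matIMs, so that both groups lay above the moMs (106, 79.8 and 89.3 CPM). Among the higher markers, Timd4, a receptor for phosphatidylserine on dying cells, was at 1.79, 1.52 and 1.49 CPM in tnsIMs and 20.9, 16.6 and 18.1 CPM in matIMs (log2 difference 3.53 ± 0.32 SE, adjusted p = 5.00e-07). Cd163, a receptor for haemoglobin with haptoglobin, was also higher (log2 difference 2.03, adjusted p = 0.00281), and at most 8.84 CPM in any library. Mrc1, the mannose receptor CD206, was at 61.1, 33.9 and 39.3 CPM in tnsIMs and 69.2, 90.2 and 74.1 CPM in matIMs (log2 difference 0.80 ± 0.24 SE, adjusted p = 0.0232), and lost its call without matIM replicate 2, tnsIM replicate 2 or tnsIM replicate 3 (adjusted p between 0.11 and 0.144). Fcrls and the chemokine Ccl8 were higher at low levels (log2 differences 1.25, adjusted p = 0.00426, and 1.88, adjusted p = 0.012). Fcrls lost its call without matIM replicate 2 (adjusted p = 0.0619), and Ccl8 without matIM replicate 2 or tnsIM replicate 3 (adjusted p = 0.054 and 0.0682, lowest first). The summed level of the 32 markers was 8376 to 9939.6 CPM in tnsIMs and 6136 to 7147 CPM in matIMs. Folr2 was at most 0.555 CPM in the 6 libraries. The markers of resident macrophages thus did not move in 1 direction between the libraries labelled tnsIM and matIM, and the populations are named here after their gates.

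Markers of classical monocytes fell together. Of 26 markers 15 were lower in matIMs and 0 higher, with a median log2 difference of -0.88. Their summed level was 57233 to 63219.7 CPM in moMs, 28476 to 36315 CPM in tnsIMs and 14616 to 17939 CPM in matIMs, without overlap between the populations. Hp (haptoglobin, chr8:110301760-110305804, - strand) had the smallest p of all genes lower in matIMs. It was at 1004, 1159 and 1211 CPM in moMs, 425, 456 and 461 CPM in tnsIMs and 101, 87.2 and 109 CPM in matIMs (log2 difference -2.17 ± 0.14 SE, adjusted p = 1.70e-08). Thbs1, the matrix protein thrombospondin 1, was at 1583, 1016 and 757 CPM in tnsIMs and 270.3, 236 and 149 CPM in matIMs (log2 difference -2.36 ± 0.31 SE, adjusted p = 2.07e-05). Cd177, a surface protein of neutrophils and some monocytes, was 5.98-fold lower (log2 difference -2.58 ± 0.33 SE, adjusted p = 1.57e-05). Ccr2, the receptor through which monocytes leave the bone marrow, was at 767, 973 and 1029.6 CPM in tnsIMs and 588, 739.7 and 792 CPM in matIMs, where the groups overlapped, and was not called (adjusted p = 0.163), while the fit with the replicate block called it (adjusted p = 0.0323). Plac8 was not called (log2 difference -0.75, adjusted p = 0.0592) but was with the block (adjusted p = 0.00856). Of 19 alveolar macrophage markers 8 were higher and 3 lower, while their summed level fell without overlap from 1386 to 1846 CPM in tnsIMs to 778 to 956 CPM in matIMs. Marco, a scavenger receptor for bacteria and particles, was at 7.59, 23.3 and 13 CPM in tnsIMs and 42.3, 122 and 56.9 CPM in matIMs (log2 difference 2.34 ± 0.55 SE, adjusted p = 0.00488). Its difference fell to 1.74 without matIM replicate 2, the highest library. Chil3, a chitinase-like protein that monocytes also make and the most abundant of these markers in tnsIMs, was at 1183, 998 and 1469 CPM in tnsIMs and 432, 261 and 321 CPM in matIMs (log2 difference -1.85 ± 0.29 SE, adjusted p = 1.41e-04). The defining alveolar markers Siglecf, Car4 and Pparg did not pass the test (adjusted p = 0.456, 0.343 and 0.5).

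Genes of MHC class II presentation differed mainly in the accessory molecules that edit the peptide. Of 17 genes 7 were higher and 0 lower, with a median log2 difference of 0.43. H2-DMb2, H2-Oa and Ciita are also on the list of conventional dendritic cells, so these lists are not separate. The B cell genes, described further on, rose as well. H2-DMb2, a chain of the H2-DM molecule that exchanges peptides (chr17:34362281-34370529, + strand), was at 71.8, 87.6 and 73.4 CPM in tnsIMs and 475, 449 and 414 CPM in matIMs (log2 difference 2.52 ± 0.16 SE, adjusted p = 7.88e-09). H2-Oa and H2-Ob form H2-O, which restrains H2-DM. H2-Oa was at 3.46, 2.73 and 3.49 CPM in tnsIMs and 30.7, 28.9 and 29.2 CPM in matIMs (log2 difference 3.19 ± 0.30 SE, adjusted p = 5.48e-07) and H2-Ob at 14.5, 20.2 and 24.9 CPM in tnsIMs and 89.8, 87.1 and 101 CPM in matIMs (log2 difference 2.22 ± 0.23 SE, adjusted p = 1.52e-06). All 3 of these genes rose without overlap and were also higher in Ezr-KOm matIMs (log2 differences 2.49, 2.79 and 2.0). Cd74, the invariant chain, was at 17462, 30295 and 11997 CPM in tnsIMs and 24366, 25888 and 16933 CPM in matIMs and was not called (adjusted p = 0.749). In tnsIMs, replicate 3 was the lowest and replicate 2 the highest library for both Cd74 and H2-Ab1, and the spread within tnsIMs was wider than the distance between the group means. Ciita, the coactivator that controls these genes, was higher (log2 difference 0.93, adjusted p = 0.031), a call that was lost when any of 4 libraries was left out (matIM replicates 2 and 3, tnsIM replicates 1 and 2, adjusted p between 0.0845 and 0.131). Of 24 MHC class I presentation genes 0 were called by edgeR with all libraries (1 had an unadjusted p under 0.05) and 0 by DESeq2, while 2 were higher without tnsIM replicate 3 and 4 with the replicate block. Tap1, the peptide transporter, was at 415, 288 and 513 CPM in tnsIMs and 555, 375 and 599.9 CPM in matIMs (adjusted p = 0.529, and 0.0408 with the replicate block).

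Promoter windows of 300 bases (250 before to 50 after the start, RefSeq, GRCm38.p6) are shown for 2 peptide-editing genes and for 2 of the cell division genes described next, as examples of genes that rose. The letters CCAAT and TTTGAA, on either strand, are in capitals. CCAAT is bound by NF-Y and forms the Y box of MHC class II promoters, and TTTGAA is the core of the element known as CHR in promoters of cell division genes. Windows are written 5′ to 3′ on the strand of the gene, at chr17:34092129-34092428 for H2-Oa (plus), chr17:34144999-34145298 for H2-DMb2 (plus), chr11:99024140-99024439 for Top2a (minus) and chr19:37376132-37376431 for Kif11 (plus).
H2-Oa: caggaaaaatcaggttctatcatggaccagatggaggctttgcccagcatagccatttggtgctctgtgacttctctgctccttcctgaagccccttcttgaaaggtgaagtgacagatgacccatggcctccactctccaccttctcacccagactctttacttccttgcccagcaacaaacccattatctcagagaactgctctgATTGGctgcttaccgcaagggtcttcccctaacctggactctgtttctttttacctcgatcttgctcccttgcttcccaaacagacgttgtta
H2-DMb2: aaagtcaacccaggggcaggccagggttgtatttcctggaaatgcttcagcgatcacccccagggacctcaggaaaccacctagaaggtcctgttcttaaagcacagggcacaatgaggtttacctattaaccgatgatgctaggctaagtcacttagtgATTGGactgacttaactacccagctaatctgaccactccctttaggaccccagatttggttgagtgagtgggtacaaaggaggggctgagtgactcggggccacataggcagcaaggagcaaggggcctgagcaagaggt
Top2a: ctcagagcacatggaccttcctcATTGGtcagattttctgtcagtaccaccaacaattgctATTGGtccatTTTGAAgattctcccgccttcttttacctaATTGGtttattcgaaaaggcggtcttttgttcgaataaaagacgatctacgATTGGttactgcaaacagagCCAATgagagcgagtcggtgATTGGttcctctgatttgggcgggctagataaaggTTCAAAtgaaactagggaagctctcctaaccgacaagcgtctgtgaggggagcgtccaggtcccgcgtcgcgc
Kif11: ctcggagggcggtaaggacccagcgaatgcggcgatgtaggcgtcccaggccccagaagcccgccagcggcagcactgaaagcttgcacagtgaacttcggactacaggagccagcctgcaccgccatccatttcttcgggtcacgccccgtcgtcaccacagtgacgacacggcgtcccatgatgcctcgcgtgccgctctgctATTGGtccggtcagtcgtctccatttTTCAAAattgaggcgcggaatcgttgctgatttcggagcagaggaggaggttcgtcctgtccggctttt

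The Top2a window held 6 matches of CCAAT and 2 of TTTGAA, the Kif11 window 1 of each, and the H2-Oa and H2-DMb2 windows 1 CCAAT each. None of these matches overlapped another. Of the 15811 genes tested, 11144 had a window in the table (14201 windows), of which 37.2% held CCAAT and 12.7% held TTTGAA, against 37.4% and 17.9% of all 32851 windows. Of 35 windows for 33 mitosis and spindle genes, 28 (80%) held CCAAT and 28 (80%) held TTTGAA. Of 38 windows for 33 DNA replication genes, 60.5% held CCAAT and 10.5% TTTGAA. For MHC class II genes, 12 of 16 windows (75%) held CCAAT and 0 held TTTGAA. Windows of migratory dendritic cell genes held CCAAT in 23.1% and TTTGAA in 28.2% of 39. MHC class I windows, whose genes were not called, held CCAAT at a share of 72.7%, so this short motif was also frequent in a list without calls. A match of these letters is a description of the window and says nothing of what bound there.

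Transcripts of DNA replication and cell division were higher in matIMs. Of 41 DNA replication genes 25 rose and 0 fell, with a median log2 difference of 0.88. Of 39 mitosis and spindle genes 26 rose and 0 fell (median 1.3), and 22 rose in Ezr-KOm cells. Without matIM replicate 2, or without tnsIM replicate 1, 17 of the mitosis genes passed. Their summed level was low in all populations, at 161 to 166 CPM in moMs, 112 to 131 CPM in tnsIMs and 218 to 225 CPM in matIMs. Mcm5, a subunit of the replicative helicase, was at 23.4, 24.2 and 25 CPM in tnsIMs and 59.9, 48.5 and 66.1 CPM in matIMs (log2 difference 1.27 ± 0.18 SE, adjusted p = 3.77e-05). Uhrf1, which maintains DNA methylation at replication, was at 3.96, 6.98 and 7.29 CPM in tnsIMs and 16.2, 21.6 and 31.6 CPM in matIMs (log2 difference 1.93 ± 0.28 SE, adjusted p = 6.11e-05). Rrm2, a subunit of ribonucleotide reductase, was 2.85-fold higher (log2 difference 1.51 ± 0.24 SE, adjusted p = 1.30e-04). Top2a, the topoisomerase whose promoter holds 6 CCAAT matches, was at 3.25, 4.12 and 4.11 CPM in tnsIMs and 10.9, 14 and 11.7 CPM in matIMs (log2 difference 1.67 ± 0.24 SE, adjusted p = 6.35e-05). Kif11, the spindle motor Eg5, was at most 0.705 CPM in the tnsIM libraries (0.292, 0.127 and 0.705) and at 3.37, 3.84 and 3.02 CPM in matIMs (log2 difference 3.1 ± 0.48 SE, adjusted p = 1.26e-04). Without tnsIM replicate 3 the log2 difference of Kif11 was 3.87. Mki67, the usual marker of cycling cells, was at 17.2, 13.3 and 29.3 CPM in tnsIMs and 28.1, 28.9 and 26.8 CPM in matIMs, and replicate 3 of the tnsIMs lay above all matIM libraries. It was not called (adjusted p = 0.196) unless that library was left out (adjusted p = 0.0136). Pcna, the sliding clamp of DNA polymerase, did not pass either (log2 difference 0.37, adjusted p = 0.178). Among G1 regulators Ccnd2 (cyclin D2) was at 283, 231 and 271 CPM in tnsIMs and 809.8, 752 and 691 CPM in matIMs (log2 difference 1.52 ± 0.17 SE, adjusted p = 4.51e-06). The inhibitor Cdkn2b (p15) rose as well (log2 difference 2.51, adjusted p = 2.39e-05), and Cdkn1a (p21) was not called (adjusted p = 0.541).

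Transcripts of B cells and immunoglobulins were also higher. Of 23 B cell genes 16 were higher and 1 lower, with a median log2 difference of 1.57. The lower call was lost without matIM replicate 2 or tnsIM replicate 2. Of 168 immunoglobulin genes tested, from 207 listed, 102 were higher and 0 lower. Their median log2 difference was 3.24, or 3.06 with the 20 genes at or under 3 counts per library in 1 group set to their lower bound. The summed immunoglobulin level was 111 to 172 CPM in moMs, 444 to 788 CPM in tnsIMs and 3549 to 5719 CPM in matIMs. Igha, the constant region of IgA heavy chains, was at 130.3, 234 and 187 CPM in tnsIMs and 1668, 2083 and 1331 CPM in matIMs (log2 difference 3.2 ± 0.39 SE, adjusted p = 9.44e-06). Igkc, the kappa constant region, was at 103, 188 and 124 CPM in tnsIMs and 1021, 1336 and 694 CPM in matIMs (log2 difference 2.88 ± 0.48 SE, adjusted p = 2.40e-04). Variable segments are near-identical copies, so reads may have been split among them. Ms4a1 (CD20), a surface marker of B cells, was at 4.8, 5.01 and 9.13 CPM in tnsIMs and 42, 29 and 27.4 CPM in matIMs (log2 difference 2.37 ± 0.54 SE, adjusted p = 0.00398). Jchain, which joins IgA and IgM into polymers, was at 23.4, 49.5 and 42.4 CPM in tnsIMs and 317, 457 and 294 CPM in matIMs (log2 difference 3.21 ± 0.43 SE, adjusted p = 2.45e-05). Spib, a transcription factor shared by B cells and plasmacytoid dendritic cells, was at 2.8, 1.84 and 4.15 CPM in tnsIMs and 21.5, 24.5 and 23 CPM in matIMs (log2 difference 2.95 ± 0.33 SE, adjusted p = 3.89e-06). In Ezr-KOm cells 10 B cell genes were higher and 0 lower, and 68 immunoglobulin genes were higher and 1 lower. Ms4a1 was not called there (log2 difference 1.47, adjusted p = 0.0615). The sort gate required CD11b, and the part of B-lineage cells in the matIM libraries was not tested.

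Genes of T and NK cells gave a mixed picture. Their summed level was 225 to 276 CPM in tnsIMs and 583 to 892 CPM in matIMs, and Ccl5 made up most of it in matIMs. Of 24 genes 5 were higher and 1 lower. Cd3e, a chain of the T cell receptor complex, was at 2.46, 3.68 and 2.7 CPM in tnsIMs and 2.26, 2.01 and 2.76 CPM in matIMs and was not called (adjusted p = 0.596). Nkg7, a granule protein of cytotoxic cells, and Ncr1, the NK receptor NKp46, were not called (adjusted p = 0.776 and 0.967). Il7r, the interleukin-7 receptor, was at 16.3, 14.9 and 19.2 CPM in tnsIMs and 63.2, 54.9 and 47.3 CPM in matIMs (log2 difference 1.71 ± 0.19 SE, adjusted p = 2.43e-06). Klrk1 (NKG2D), which activated myeloid cells can express, was at 31.1, 21.5 and 27.4 CPM in tnsIMs and 151, 119 and 135 CPM in matIMs (log2 difference 2.34 ± 0.38 SE, adjusted p = 2.12e-04), and its lectin family holds close copies. Il2ra (CD25), found on activated dendritic cells as well as T cells, was at 4.76, 4.06 and 4.11 CPM in tnsIMs and 38.8, 57.8 and 44.3 CPM in matIMs (log2 difference 3.44 ± 0.38 SE, adjusted p = 2.68e-06).

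Chemokine ligands divided into groups that rose and fell. Of 34 ligands 7 were higher and 13 lower. The CCR4 ligand Ccl17 was at 173, 352 and 124 CPM in tnsIMs and 1677, 2048 and 964 CPM in matIMs (log2 difference 2.85 ± 0.43 SE, adjusted p = 1.01e-04), in step with Ccl22. Ccl5 (RANTES), which attracts T cells, was at 165, 93.3 and 133 CPM in tnsIMs and 527, 721 and 387 CPM in matIMs (log2 difference 2.06 ± 0.42 SE, adjusted p = 0.00158). Cxcl13, which attracts B cells, was at 14.1, 27.3 and 18.6 CPM in tnsIMs and 130.3, 319.7 and 178 CPM in matIMs (log2 difference 3.4 ± 0.41 SE, adjusted p = 8.00e-06). Cx3cl1 (fractalkine), the ligand of CX3CR1, rose too (log2 difference 1.82, adjusted p = 8.02e-05). Other ligands went the other way, Ccl2 and Cxcl2 among them. Ccl2, the ligand of CCR2, was at 1386, 2048 and 1016 CPM in tnsIMs and 605, 637 and 436 CPM in matIMs and was 2.65-fold lower (log2 difference -1.41 ± 0.22 SE, adjusted p = 1.26e-04). Cxcl2, a neutrophil attractant, fell by less (log2 difference -0.94, adjusted p = 0.0411), and lost its call without matIM replicate 2, matIM replicate 3 or tnsIM replicate 1 (adjusted p between 0.139 and 0.291). Cxcl15, a chemokine of lung epithelium, was at 43.8, 57.9 and 69.7 CPM in tnsIMs and 7.09, 5.43 and 5.74 CPM in matIMs (log2 difference -3.23 ± 0.49 SE, adjusted p = 9.79e-05), and the epithelial genes moved with it. Cxcl10 was not called (adjusted p = 0.52). Of 21 receptors 4 were higher, Ccr7, Cxcr5 and Ccr6 among them, and 6 lower. Cxcr5, the receptor for CXCL13, was at 3.92, 5.39 and 6.58 CPM in tnsIMs and 42.4, 30.5 and 29.5 CPM in matIMs (log2 difference 2.69 ± 0.36 SE, adjusted p = 2.39e-05), so ligand and receptor of this pair were both higher in matIMs. Cxcr5 is also on the list of B cell genes, described with the immunoglobulins. Ackr3 and Ackr2, scavenging receptors that are also found on endothelium, were lower (log2 differences -3.67, adjusted p = 2.52e-05, and -3.0, adjusted p = 2.61e-04). Cmklr1, the chemerin receptor, fell (log2 difference -1.22, adjusted p = 3.43e-04). Cx3cr1, the locus of the Cre, was at 54.3, 44.1 and 88.1 CPM in tnsIMs and 30.6, 65.9 and 68 CPM in matIMs and was not called (adjusted p = 0.75).

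Ligands that costimulate or restrain T cells rose in part. Of 24 genes 10 were higher, or 6 without matIM replicate 1, matIM replicate 2, tnsIM replicate 1 or tnsIM replicate 3. Icosl, the ligand of ICOS, was at 88.1, 131 and 129 CPM in tnsIMs and 228, 247 and 299.96 CPM in matIMs (log2 difference 1.15 ± 0.19 SE, adjusted p = 2.42e-04). Tnfsf4 (OX40 ligand) was at 0.918, 0.507 and 0.744 CPM in tnsIMs and 7.94, 5.04 and 4.02 CPM in matIMs (log2 difference 2.94 ± 0.49 SE, adjusted p = 2.34e-04). Cd70, the ligand of CD27, was at or under 3 counts in each tnsIM library and at 4.21, 4.53 and 3.06 CPM in matIMs (adjusted p = 9.42e-05). Changes were smaller for the classical ligands. Cd86 was at 211, 245 and 198 CPM in tnsIMs and 326, 336 and 291 CPM in matIMs, with all matIM libraries above the tnsIM libraries, and was 1.46-fold higher (log2 difference 0.54, adjusted p = 0.0316). Cd80 and Cd40 had log2 differences of 0.58, adjusted p = 0.0339, and 0.76, adjusted p = 0.0368. The calls of these 3 genes were lost without 1 library, which could be any of 4 for Cd86 (adjusted p up to 0.163), any of 4 for Cd80 (up to 0.179) and any of the 6 for Cd40 (up to 0.195). Cd274 (PD-L1) was not called (adjusted p = 0.561). Cd276 (B7-H3) fell (log2 difference -1.29, adjusted p = 1.94e-04). In the TNF superfamily, the receptors Tnfrsf4 (OX40) and Tnfrsf18 (GITR) rose (log2 differences 2.83, adjusted p = 1.41e-05, and 2.46, adjusted p = 1.82e-05), and Tnfrsf13c, the BAFF receptor of B cells, rose with the other B cell genes (log2 difference 2.67, adjusted p = 1.27e-05).

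Genes that sense LPS and carry the inflammatory response were lower or did not pass the test. Of 27 LPS and Toll-like receptor genes 5 were lower and 0 higher, or 8 and 1 with the replicate block. Cd14, which hands LPS to TLR4, was at 7589, 10511 and 5532 CPM in tnsIMs and 4035, 3589 and 2799 CPM in matIMs (log2 difference -1.18 ± 0.19 SE, adjusted p = 1.92e-04). Tlr4 itself was at 58.4, 58.7 and 85 CPM in tnsIMs and 27.4, 32.3 and 36.1 CPM in matIMs (log2 difference -1.08 ± 0.28 SE, adjusted p = 0.00886), and its partner Ly96 (MD-2) was not called (adjusted p = 0.945). Tlr2, a receptor for bacterial lipoproteins, was 1.75-fold lower (log2 difference -0.81 ± 0.13 SE, adjusted p = 1.22e-04). Lbp, the LPS-binding protein, was at 11.1, 6.21 and 9.44 CPM in tnsIMs and 0.887, 0.854 and 0.559 CPM in matIMs (log2 difference -3.55 ± 0.34 SE, adjusted p = 7.09e-07). The endothelial and epithelial genes, described further on, moved with Lbp (median log2 differences -3.35 and -2.76). Of 29 cytokines 12 were lower and 0 higher (1 with the block), with a median log2 difference of -0.70. Il1rn, the antagonist of the IL-1 receptor, was at 3221, 3125 and 2846 CPM in tnsIMs and 1899, 1578 and 1352 CPM in matIMs (log2 difference -0.93 ± 0.17 SE, adjusted p = 5.68e-04). Il23a, a subunit of IL-23, was 2.31-fold lower (log2 difference -1.21 ± 0.24 SE, adjusted p = 0.00121), and Csf1, the macrophage growth factor, 3.02-fold lower (log2 difference -1.6 ± 0.22 SE, adjusted p = 2.88e-05). The classical LPS cytokines were not called. Tnf was at 1007, 550.2 and 763 CPM in tnsIMs and 696, 386 and 389.6 CPM in matIMs (adjusted p = 0.243), with replicate 1 the highest library of each group, and passed with the replicate block (adjusted p = 0.0145). Il10 did so too (0.327 without and 0.00228 with the block). Its log2 difference of -0.84 was -0.23 without tnsIM replicate 1. Il1b and Il6 were not called with or without the block (adjusted p = 0.194 and 0.157 without, 0.105 and 0.131 with it). Of 49 interferon-stimulated genes 0 were called by edgeR (median log2 difference -0.20), with 2 at an unadjusted p under 0.05 and 1 called lower by DESeq2. Without matIM replicate 1 a single gene was lower, and 4 were lower with the block.

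Among regulators, NF-kappaB members differed by subunit. Of 26 genes 7 were higher and 2 lower. Nfkb1 (p50 precursor) was at 219.6, 256 and 219 CPM in tnsIMs and 359, 341 and 384 CPM in matIMs (log2 difference 0.64 ± 0.14 SE, adjusted p = 0.00218), while Rela was at 257, 265 and 239 CPM in tnsIMs and 261, 263 and 261 CPM in matIMs and was not called (adjusted p = 0.855). Birc2 and Map3k14 (NIK), which control the alternative pathway that acts through RelB, were 3.37-fold and 2.5-fold higher (log2 differences 1.75, adjusted p = 1.37e-05, and 1.32, adjusted p = 2.74e-05). Nfkb2, the other subunit of that pathway, was not called (adjusted p = 0.535). Rel was called with the replicate block (adjusted p = 0.198 without and 0.0377 with it). Ikbke, a kinase of interferon and NF-kappaB signalling, was at 221, 347 and 282 CPM in tnsIMs and 89.5, 93.6 and 106 CPM in matIMs (log2 difference -1.56 ± 0.17 SE, adjusted p = 2.69e-06). Of the immediate early genes, Fos was at 3299.8, 3407 and 3588 CPM in tnsIMs and 2163, 2162 and 2485 CPM in matIMs (log2 difference -0.60 ± 0.13 SE, adjusted p = 0.00282), and Egr2 and Ier3 fell (log2 differences -0.99, adjusted p = 4.24e-05, and -1.0, adjusted p = 0.00102). Jun, Egr1 and Atf3 were not called (adjusted p = 0.613, 0.242 and 0.956). Nr4a1 was lower in every matIM library than in every tnsIM library and passed with the block (adjusted p = 0.0611 without and 0.00833 with it). Without tnsIM replicate 1 or 3 its adjusted p was 0.0265 to 0.0268. Among lineage transcription factors, Etv3 rose (log2 difference 1.78, adjusted p = 5.63e-05), as did Bach2, a repressor of plasma cell fate (log2 difference 1.18, adjusted p = 0.0016). Nr1h3 (LXR alpha) and Cebpd fell (log2 differences -0.95, adjusted p = 2.19e-04, and -1.05, adjusted p = 4.30e-04), and Spi1 (PU.1) and Irf8 were not called (adjusted p = 0.284 and 0.958).

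Genes of uptake and opsonization moved in both directions. Of 23 complement genes 12 were lower and 0 higher, with a median log2 difference of -1.2. With the replicate block, or without tnsIM replicate 3, 2 were higher. In tnsIMs this list lay above moMs (median log2 difference 1.2, 11 called higher and 2 lower). The endothelial, epithelial and fibroblast genes, described further on, did so too. C5ar1, the receptor for C5a, was at 889, 1058 and 818 CPM in tnsIMs and 354, 342 and 321 CPM in matIMs (log2 difference -1.44 ± 0.16 SE, adjusted p = 3.25e-06), and C3, the central complement component, at 568, 299.6 and 568 CPM in tnsIMs and 201, 138 and 208 CPM in matIMs (log2 difference -1.39 ± 0.22 SE, adjusted p = 1.43e-04). Of 14 Fc receptor genes 5 were lower and 2 higher. Fcgr3 and Fcgr2b, the activating and inhibitory low-affinity receptors for IgG, both fell (log2 differences -0.94, adjusted p = 0.00103, and -0.61, adjusted p = 0.0061). Fcgrt, the neonatal Fc receptor that recycles IgG, was at 41, 56.8 and 43.9 CPM in tnsIMs and 125, 125 and 128 CPM in matIMs (log2 difference 1.42 ± 0.18 SE, adjusted p = 1.58e-05). Fcgr4 was called with the block (adjusted p = 0.248 without and 0.0405 with it). Of 22 scavenger and efferocytosis receptors 10 were lower and 3 higher. Msr1, the scavenger receptor SR-A, was at 704, 998 and 707 CPM in tnsIMs and 273, 276 and 264 CPM in matIMs (log2 difference -1.57 ± 0.15 SE, adjusted p = 5.95e-07). Of 30 C-type lectin receptors 11 were higher and 10 lower, and 7 were higher without matIM replicate 2 or tnsIM replicate 3. Clec10a (CD301a) was at 21.7, 38 and 19 CPM in tnsIMs and 146, 192 and 149 CPM in matIMs (log2 difference 2.64 ± 0.31 SE, adjusted p = 5.04e-06). Clec4e (Mincle), a sensor of mycobacterial glycolipid, was at 1556, 1116 and 1567 CPM in tnsIMs and 968, 605 and 703 CPM in matIMs (log2 difference -0.90 ± 0.21 SE, adjusted p = 0.00538), and Clec7a (dectin-1) was not called (adjusted p = 0.61).

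Genes of arginine, lipid and lysosomal metabolism changed by member. Arg1, the arginase that monocyte-derived macrophages raise, was at 262, 243 and 198 CPM in tnsIMs and 74.6, 52.1 and 47.6 CPM in matIMs (log2 difference -2.01 ± 0.37 SE, adjusted p = 6.40e-04) and at 463, 362 and 315 CPM in moMs. Nos2, the inducible nitric oxide synthase, spread over a wide range within each group, at 48.3, 7.04 and 101 CPM in tnsIMs and 14.9, 1.67 and 27.6 CPM in matIMs. In each group replicate 2 was lowest and replicate 3 highest, and the difference passed with the block (adjusted p = 0.247 without and 0.00557 with it). Its log2 difference of -1.83 was -2.67 without matIM replicate 3 and -0.98 without tnsIM replicate 3. Acod1, which makes itaconate, was called with the block (adjusted p = 0.00709) or without tnsIM replicate 2 (0.0283), against 0.124 with all libraries and no block. Retnla, a gene of alternative activation, was at 7.38, 6.21 and 4.04 CPM in tnsIMs and 36.4, 41.5 and 21.2 CPM in matIMs (log2 difference 2.49 ± 0.45 SE, adjusted p = 5.38e-04). Kynu (kynureninase), the enzyme that acts beside Kmo, was at 2.96, 2.16 and 3.84 CPM in tnsIMs and 25.5, 26.5 and 22.1 CPM in matIMs (log2 difference 3.03 ± 0.30 SE, adjusted p = 9.70e-07). Ido1, the enzyme that starts this pathway, was at 1.84, 1.59 and 3.17 CPM in tnsIMs and 0.133, 0.171 and 0.224 CPM in matIMs (log2 difference -3.6 ± 0.61 SE, adjusted p = 2.63e-04). The matIM levels of Ido1 were close to the floor of 3 counts per library, so the size of its fall is uncertain. Apoe, the lipoprotein of cholesterol export, was at 1397, 2670.3 and 1601 CPM in tnsIMs and 691, 934 and 878 CPM in matIMs (log2 difference -1.18 ± 0.25 SE, adjusted p = 0.00211). Fabp5, a fatty acid carrier, was 2.82-fold higher (log2 difference 1.5 ± 0.21 SE, adjusted p = 4.38e-05). Among lysosomal proteases Ctsc and Ctsb fell (log2 differences -1.21, adjusted p = 1.07e-05, and -0.76, adjusted p = 0.00235), and Ctss, the cathepsin that trims the invariant chain, was not called (adjusted p = 0.27). In eicosanoid synthesis Ptgs1 (COX-1) fell (log2 difference -1.8, adjusted p = 2.85e-05) and Lta4h, Alox5 and Hpgds rose (log2 differences 0.87, adjusted p = 1.18e-04, then 0.73, adjusted p = 0.00615, and 2.15, adjusted p = 6.22e-04). Ptgs2 (COX-2) was not called (adjusted p = 0.0515), but passed with the block (adjusted p = 0.015) and without matIM replicate 1 or tnsIM replicate 2 (adjusted p between 0.0259 and 0.0485).

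Genes of structural lung cells were lower in matIMs. All 20 endothelial genes tested were lower (median log2 difference -3.35), with 16 of 26 alveolar type 2 and airway epithelial genes (median -2.76) and 15 of 17 fibroblast and smooth muscle genes (median -2.31). Plvap, a diaphragm protein of lung capillaries, was at 137, 273 and 185 CPM in tnsIMs and 9.84, 11.6 and 15.8 CPM in matIMs (log2 difference -3.99 ± 0.30 SE, adjusted p = 7.48e-08). Cdh5 (VE-cadherin) was at 29.4, 17.6 and 40.5 CPM in tnsIMs and 2.57, 1.62 and 3.43 CPM in matIMs (log2 difference -3.52 ± 0.31 SE, adjusted p = 3.84e-07). Sftpc, the surfactant protein C of alveolar type 2 cells, was at 870.2, 1876 and 1199 CPM in tnsIMs and 122, 103 and 118 CPM in matIMs (log2 difference -3.52 ± 0.52 SE, adjusted p = 7.18e-05). Col1a1, a fibrillar collagen of fibroblasts, was at 21.7, 17.9 and 20.8 CPM in tnsIMs and 3.37, 5.04 and 2.24 CPM in matIMs (log2 difference -2.51 ± 0.31 SE, adjusted p = 8.73e-06). The summed endothelial level was 302 to 370.3 CPM in moMs, 885 to 1382 CPM in tnsIMs and 183 to 235 CPM in matIMs. The summed epithelial level was 806 to 848, 3905 to 5449.6 and 1290.1 to 1375 CPM in the same order, and that of fibroblasts and smooth muscle 72.4 to 105, 306 to 361 and 49.2 to 71.8 CPM. On all 3 sums the tnsIM libraries lay above both other populations. Among the 10 genes of smallest p that were lower in matIMs were several known from endothelium or epithelium, with Plvap, Esam and Tmem100 on the endothelial list (Esam on that of type 2 dendritic cells too) and Cyp4b1, Tspan7, Bcam, Afap1l1, Smad6 and Lrg1 outside these lists. Their part in the difference between the populations, as cells or RNA carried through the sort, was not tested.

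**Figure D3:**
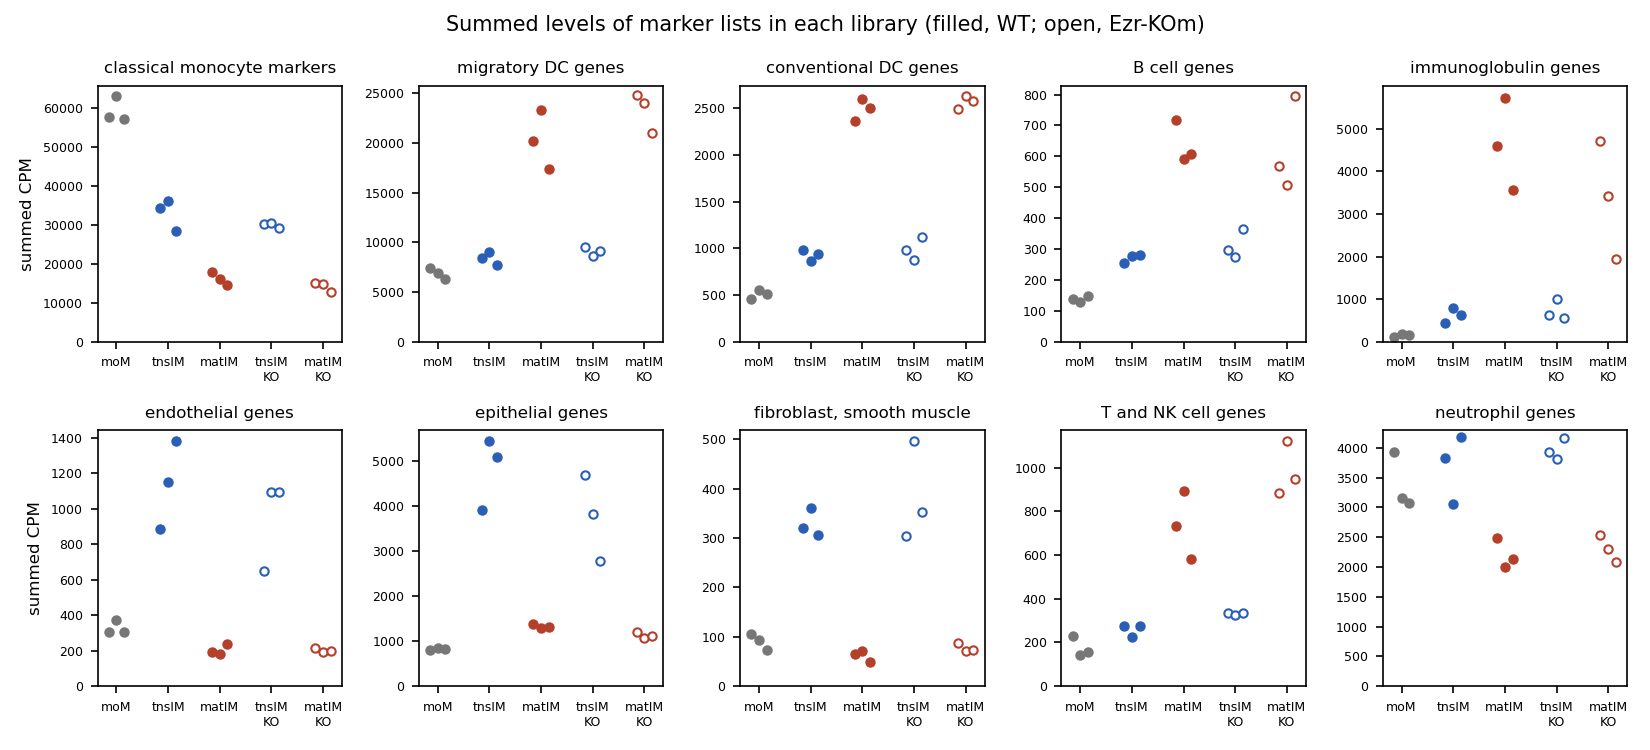
Summed CPM (y axis, from 0) of 10 marker lists in each library, with WT moMs, tnsIMs and matIMs as filled points and Ezr-KOm tnsIMs and matIMs as open points. Endothelial, epithelial and fibroblast sums are highest in tnsIMs of both genotypes, dendritic cell, B cell and immunoglobulin sums in matIMs, and the classical monocyte sum falls from moMs to tnsIMs to matIMs.

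Genes of adhesion and matrix moved with the structural markers in part. Of 45 collagens and matrix glycoproteins 34 were lower and 2 higher, at a median log2 difference of -2.31, the same direction as the fibroblast and endothelial sums. Col4a1, a collagen of basement membranes, was at 97.2, 86.2 and 121 CPM in tnsIMs and 9.36, 13.2 and 15.1 CPM in matIMs (log2 difference -3.01 ± 0.26 SE, adjusted p = 2.73e-07). Fn1 (fibronectin), which monocytes make in quantity, was at 4435, 4583 and 4622 CPM in moMs and at 5086, 2237 and 4074 CPM in tnsIMs and 1775, 1009 and 1645 CPM in matIMs. It was lower in matIMs (log2 difference -1.36, adjusted p = 0.0123), and its call was lost without matIM replicate 2 or tnsIM replicate 1 (adjusted p = 0.0685 to 0.0687). Of 23 integrin subunits 12 were lower and 4 higher. Itgb5, which pairs with alpha V in the uptake of dying cells, was at 411, 450.2 and 366 CPM in tnsIMs and 167, 156 and 182 CPM in matIMs (log2 difference -1.28 ± 0.15 SE, adjusted p = 4.65e-06). Itgb7, the partner of Itgae and of alpha 4, was at 92.1, 101 and 129 CPM in tnsIMs and 270.2, 319.5 and 338 CPM in matIMs (log2 difference 1.53 ± 0.20 SE, adjusted p = 1.63e-05) and at 378, 543 and 521 CPM in moMs, so that tnsIMs were again lowest. Itgb1 was not called (adjusted p = 0.284). Among 40 metalloproteinases and inhibitors 6 were higher and 15 lower. Adam23, a surface ADAM without protease activity, was at 1.96, 1.78 and 2.0 CPM in tnsIMs and 33.1, 58.8 and 54.5 CPM in matIMs (log2 difference 4.66 ± 0.42 SE, adjusted p = 3.96e-07), and Mmp25, a membrane-bound metalloproteinase of leukocytes, at 7.3, 5.07 and 8.89 CPM in tnsIMs and 49, 55.4 and 48 CPM in matIMs (log2 difference 2.83 ± 0.30 SE, adjusted p = 2.27e-06). Timp3, an inhibitor stored in matrix, was 8.95-fold lower (log2 difference -3.16 ± 0.28 SE, adjusted p = 3.18e-07). Mmp12, the macrophage elastase, was at 343, 389 and 241 CPM in tnsIMs and 482, 435 and 303 CPM in matIMs, where the ranges overlapped, and was not called (adjusted p = 0.52).

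Of 49 genes of actin bundling and cell shape 12 were higher, or 7 without matIM replicate 2. Beside Fscn1, these included Actn1 (alpha-actinin), at 18.1, 16 and 17.3 CPM in tnsIMs and 68, 77.1 and 67.9 CPM in matIMs (log2 difference 2.05 ± 0.27 SE, adjusted p = 1.70e-05), Rhof, a GTPase of filopodia, at 7.97, 10.3 and 12 CPM in tnsIMs and 40.3, 39.3 and 40 CPM in matIMs (log2 difference 1.98 ± 0.19 SE, adjusted p = 6.78e-07), and the membrane myosin Myo1g (log2 difference 1.01, adjusted p = 5.83e-05). Evl, an actin elongation factor, fell (log2 difference -0.68, adjusted p = 0.00354). Ezr, which links actin to the membrane, was at 679, 515 and 565 CPM in tnsIMs and 741, 632 and 611 CPM in matIMs and was not called (adjusted p = 0.709), and neither were Msn and Rdx of the same family (adjusted p = 0.839 and 0.871). Serpinb9, an inhibitor of granzyme B, was at 28.7, 27.5 and 44.2 CPM in tnsIMs and 155, 205 and 167 CPM in matIMs (log2 difference 2.39 ± 0.25 SE, adjusted p = 1.79e-06). Most genes of basic metabolism did not pass. Of 89 nuclear respiratory chain subunits 3 were lower and 0 higher, of 87 ribosomal protein genes 1 was higher (0 without any 1 of the 6 libraries, and 2 with the block). Of 15 mitochondrially encoded genes 0 were called by edgeR or DESeq2, with 2 at an unadjusted p under 0.05, 1 called without tnsIM replicate 3 and 2 with the block. In glycolysis, Pfkp, a phosphofructokinase, was at 479.7, 566 and 477 CPM in tnsIMs and 856, 799 and 779 CPM in matIMs (log2 difference 0.68 ± 0.14 SE, adjusted p = 0.00149), and Ldha and Hk2 were not called (adjusted p = 0.555 and 0.547).

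**Figure D4:**
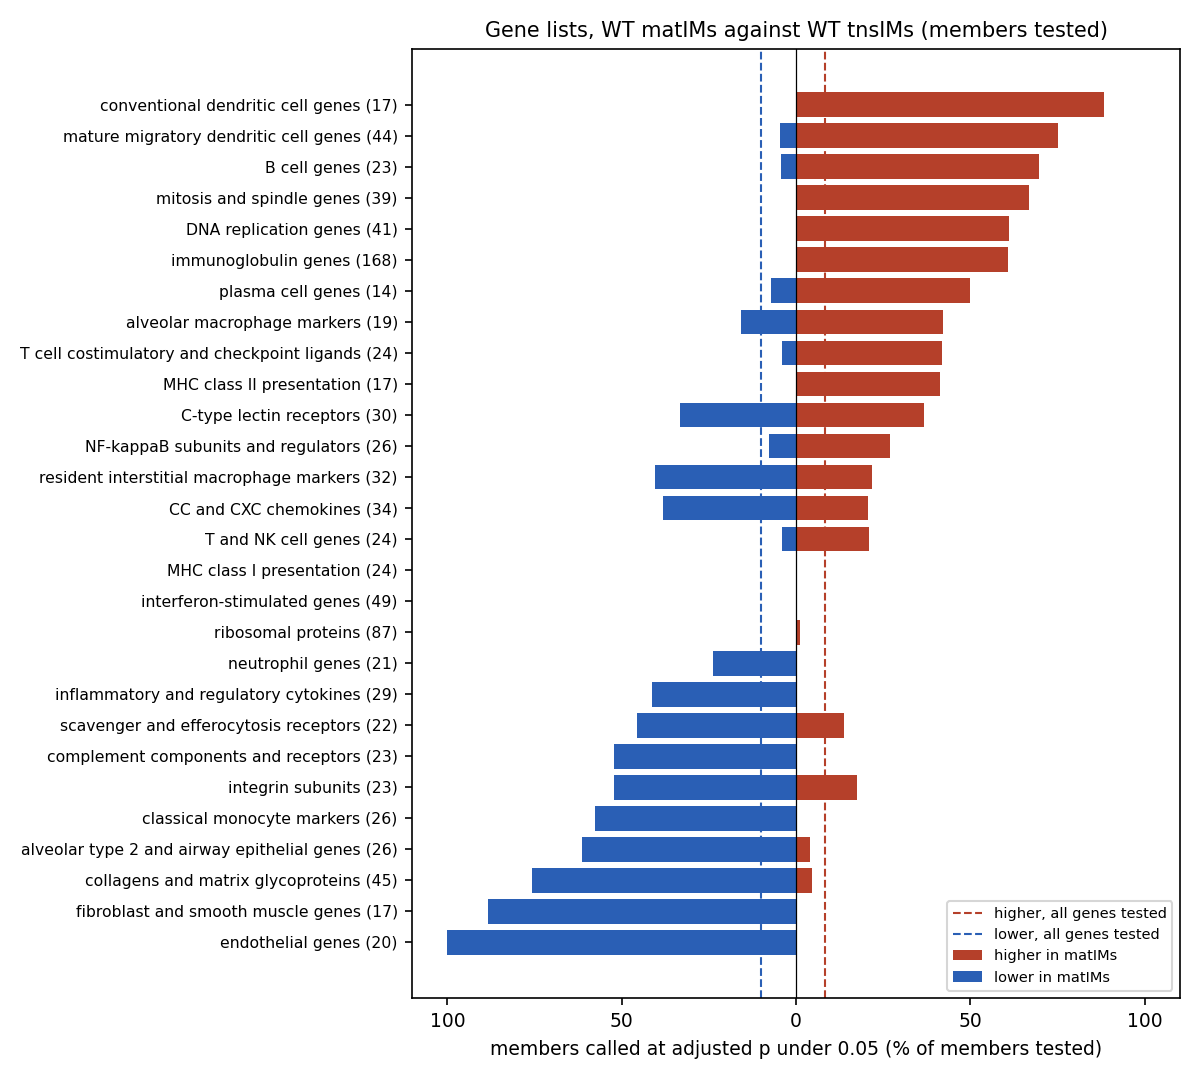
Share of the tested members of each gene list (x axis, %) that were higher (to the right) or lower (to the left) in WT matIMs at an adjusted p under 0.05, with the number tested in brackets and the shares over all genes, 8.32% and 10.2%, as dashed lines. Endothelial genes are called lower throughout, conventional and migratory dendritic cell genes reach the highest shares to the right, and MHC class I and interferon-stimulated genes have no call.

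The same step was examined in Ezr-KOm cells. Ezr, the deleted gene, was at 234, 126 and 213 CPM in Ezr-KOm tnsIMs and 167, 93.8 and 144 CPM in Ezr-KOm matIMs, below every WT library of the same population. Between these populations 1323 genes were higher in Ezr-KOm matIMs (8.37% of the genes tested) and 1558 lower (9.85%), or 18.2% in all. Of the 1315 genes higher in WT, 1021 were also called higher in Ezr-KOm, which is 77.6% of the WT genes and 77.2% of the Ezr-KOm genes. Of the 1611 genes lower in WT, 1281 were called lower, 79.5% of the WT and 82.2% of the Ezr-KOm genes. Among all 2926 genes called in WT, 2912 (99.5%) had the same sign, and 0 were called in opposite directions. These comparisons share no library, but libraries of the same replicate number deviated from their group means together across genotypes too (r across genes of 0.24, 0.19 and 0.31 for tnsIMs and 0.23, 0.15 and 0.10 for matIMs), so the genotypes are not fully separate. Ccr7 differed by 4.08 in WT and 3.8 in Ezr-KOm, and Ly6c2 by -2.1 and -2.53, on the log2 scale. A test of the difference itself, the interaction of population and genotype, called 0 of 15811 genes with edgeR at an adjusted p under 0.05, and 183 had an unadjusted p under 0.05. DESeq2 also called 0, with 218 genes at an unadjusted p under 0.05. For Ezr the log2 difference between matIMs and tnsIMs was 0.17 in WT and -0.50 in Ezr-KOm, and the interaction was not called by edgeR. A p over the threshold does not show that the step was the same in both genotypes.

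**Figure D5:**
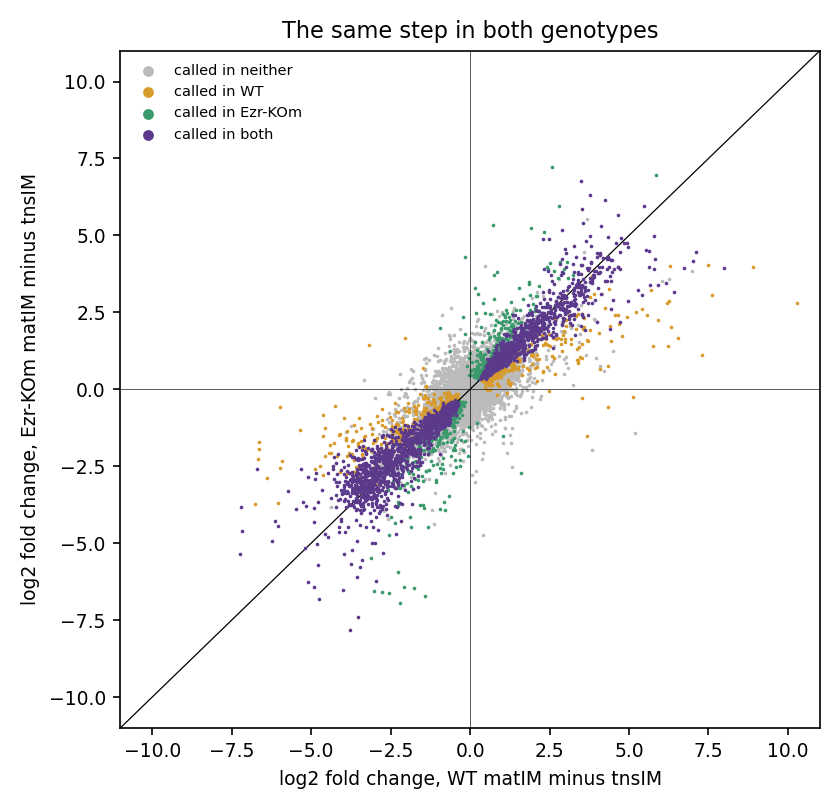
Log2 fold change of each gene tested, matIM minus tnsIM, in WT (x axis) and in Ezr-KOm cells (y axis), with colours for genes called in one, in both or in neither and a line of equality. Genes called in both lie in the 2 quadrants of equal sign, and 0 genes were called in opposite directions.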

How the data were processed

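RNA of sorted lung cells was sequenced with SMART-Seq v4 and Nextera XT libraries (150 bp paired-end), and the authors aligned reads with STAR 2.7.9a to GRCm39 and deposited whole-number counts per gene. The strand setting of the counting is not given in the sources used here, so overlapping and antisense genes may share counts, and near-identical copies may split them. The table held no unused column of per-sample values. Counts were normalized with TMM and tested with edgeR 4.0.16 in R 4.3.3 (glmQLFit and glmQLFTest) in 1 model of the 6 groups and 18 libraries, after filterByExpr with a smallest count of 10. CPM values used the same factors. P-values rest on the spread between the 3 libraries within each group, estimated over all 6 groups together and with information shared across genes. The main fit held no term for the replicate number.

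Groups came from the sample labels. Alternatives were DESeq2 1.42.0, other scalings, filters and sample sets, blocks on replicate number, and each library left out. Genes at or under 3 counts per library in a group were given no fold. Deviations from the group means correlated between WT tnsIM and matIM libraries of the same number (r = 0.32, 0.17 and 0.40 across genes). For Ezr-KOm these values were 0.32, 0.25 and 0.18, and the numbers were taken to pair the libraries in the block. Between different numbers r was at most -0.0036 in WT. Deviations within a group of 3 sum to 0, so these negative values are not separate evidence of pairing. Same-numbered libraries also correlated across genotypes (0.24, 0.19 and 0.31 for tnsIMs, 0.23, 0.15 and 0.10 for matIMs). Whether a number stands for a mouse or for a batch was not tested. The comparison, gene lists and tests were chosen with earlier results of these data known. Genes were named if they had the 10 smallest p in a direction without overlap between groups (immunoglobulins and unnamed gene models aside), or if they defined a list or had one of its 4 smallest p in a direction. The edgeR fit was tested on simulated counts drawn independently for each library, which leaves out the correlation between libraries of the same number. Promoter windows came from RefSeq (GRCm38.p6), matched by symbol with Python 3.11.15, and no coordinates were moved between builds. A few members of the lists are not reported here.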

Additional observations from a re-analysis of the deposited data

How the results depend on the processing

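A filter that kept genes with 10 or more counts in each of the libraries left 11444 genes to test, and 1760 were called between WT matIMs and tnsIMs, 1549 by the study's rule and 1837 in Ezr-KOm, fewer genes being tested. Leaving out 1 library at a time gave 2241 to 2669 calls in WT, 2969 to 3251 by the study's rule, 2309 to 2858 in Ezr-KOm and 0 for the difference between genotypes. The replicate block raised the calls to 3654 in WT and 3696 in Ezr-KOm, against 2926 and 2881 without it. The block called Acod1, Ccr2, Fcgr4, Il10, Itgam, Nos2, Nr4a1, Plac8, Ptgs2, Rel, Tap1 and Tnf, as given in the text, and changed no other call among 195 of the genes named. A block on genotype and number together (3773 genes in WT) called H2-Aa and Pcna as well. Of these 195 genes, 170 kept their call under every alternative run that tested them, and 0 of those called changed sign. The filter of 10 or more counts in each library left some of the 195 untested. Counting error limits genes at a few CPM, such as Kif11, Itgae and Ido1.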
